A study of Saccharomyces cerevisiae with 3 samples.

Results

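Mitochondrial ribosomal proteins were followed at the transcript level in Saccharomyces cerevisiae lacking GCR1 and in its wild type, before and after glucose was given to cells growing on pyruvate. The genes were chosen by symbol alone: MRP, MRPL, MRPS or RSM followed only by digits in the platform annotation. The rule took 67 of 5598 named genes, measured by 113 probes, and all 67 had a value on each of the 3 arrays. In RefSeq's R64 annotation, 38 of them carry the systematic name of a protein of the large mitochondrial ribosomal subunit and 27 that of a protein of the small subunit. The other 2, MRP8 and RSM22, carry no such name and were assigned to neither subunit.

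The arrays compared a gcr1 null mutant with wild type yeast, both grown in rich medium (YEP) with 3% pyruvate. One array was hybridised for each time: 0 min, taken before glucose, and 20 and 60 min after it. Each array held both strains, with Cy5 on channel 1 and Cy3 on channel 2; other alleles, the strain background, the number of cultures and dye-swapped arrays are not described in the labels. With 1 array per time there was no replicate, so no test between the strains was possible, and every value below is a description of these arrays.

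The nuclear genome of yeast encodes nearly all proteins of the mitochondrial ribosome, which are made in the cytosol and imported. This ribosome translates the few mRNAs of the mitochondrial genome, most of which code for subunits of the respiratory chain and the ATP synthase. Budding yeast represses respiration when glucose is plentiful, and GCR1 encodes an activator of glycolytic genes. Many proteins of the mitochondrial ribosome have counterparts in the bacterial ribosome, and others occur only in mitochondria.

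Each value is a log2 ratio of the strains, averaged over the probes of a gene, so that 1.0 is a 2-fold difference. The labels do not name the numerator. The array titles and the study design put the mutant first, which makes mutant over wild type the likely direction, and a negative value would then be less transcript in the mutant. GCR1 itself had positive ratios, with 0.97, 0.91 and 1.51 at 0, 20 and 60 min. That goes against this direction if the probes fall inside the deletion, and where they fall was not known here. The lowest of all named genes at 0 min was GPM1, a glycolytic gene, at -5.55, which goes with this direction. These 2 genes do not settle the direction, so values are given as positive or negative. Over all named genes the medians were 0.07, -0.08 and 0.05 at 0, 20 and 60 min. Where a gene had 2 probes, their median gap was 0.11 at every time, and 95% of the gaps were below 0.41, 0.48 and 0.38 at 0, 20 and 60 min. The gap covers 1 hybridisation only, not the spread between cultures or arrays. Array intensities were not analysed here, so levels of different genes cannot be compared.

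On pyruvate the genes of the mitochondrial ribosome stood on the negative side, with few exceptions and by less than 2-fold. Of the 67 genes 59 were below 0, while 40.8% of all named genes were. Their median was -0.26, a 1.19-fold difference, with quartiles of -0.43 and -0.15. No member reached 2-fold in either direction, where 1.09% of all genes did so on the positive and 2.25% on the negative side. Centring each array on its median took 1 member, MRPL36, beyond 2-fold on the negative side, and scaling the arrays to equal spread took 24. The lowest member, MRPL36, had -0.95 and the highest, MRPL22, had 0.24.

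**Figure D1:**
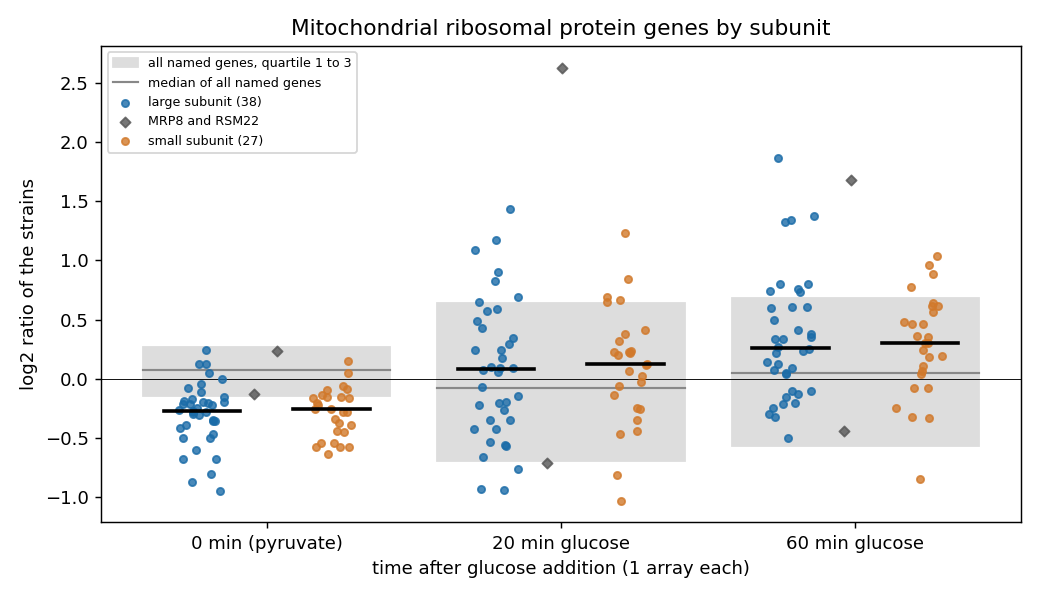
Log2 ratio of the strains (vertical axis) for each mitochondrial ribosomal protein gene at 0, 20 and 60 min after glucose, 1 array each; points are genes (large subunit left, small subunit right, MRP8 and RSM22 as diamonds), black bars are subunit medians, and grey boxes and lines are the quartiles and median of all named genes. Both subunits have medians near -0.26 at 0 min, and at 60 min 0.26 for the large and 0.31 for the small subunit.

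After glucose the same genes, like all named genes, spread out, and their median was positive. At 20 min the median was 0.09 and at 60 min 0.31, a 1.24-fold difference. Above 0 were 39 of 67 genes at 20 min, against 47.1% of all genes, and 50 of 67 at 60 min, against 52.1%. At 20 min 5 members reached 2-fold on the positive side and 1 on the negative side, where 17.1% and 16.5% of all genes did. At 60 min 6 and 0 members did, where 16.2% and 13.6% of all genes did. Both counts of positive members were a smaller share than over all genes, and the members' interquartile range at 20 min was 0.73, against 1.34 for all genes. At 0 min these ranges were 0.28 for the members and 0.42 for all genes. Over the 3 arrays 59 of 67 members stayed within 2-fold each time, against 53.8% of all genes.

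Subtracting one array from another removes a probe or dye bias that stays constant. From 0 to 20 min the log2 ratio of the members shifted by a median of 0.37, with 50 of 67 shifting upwards, against -0.09 and 46.3% for all genes. At least 2-fold upwards were 9 members and at least 2-fold downwards 0, against 16.1% and 16.4% of all genes. From 20 to 60 min the median shift was 0.20, again with 50 of 67 upwards, against 0.16 and 58.7% for all genes, and no member shifted by 2-fold either way, where 8.45% of genes did so upwards and 10.2% downwards. From 0 to 60 min the median shift was 0.62, with 59 of 67 upwards, against 0.02 and 51.1% for all genes. Of the members, 15 shifted at least 2-fold upwards and 0 downwards, where 15.4% and 13.3% of all genes did. The 3 differences share arrays, so they are not separate pieces of evidence. Scaling the arrays to equal spread, which stretches the 0 min array, took the median at 0 min to -0.79 and the shift from 0 to 20 min to 0.96.

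The large and small subunits are given side by side, without a test, since genes are not replicates. At 0 min the median was -0.27 for the large and -0.26 for the small subunit, with 33 of 38 and 25 of 27 genes below 0. At 20 min the medians were 0.08 and 0.12, with 21 of 38 and 17 of 27 above 0, and at 60 min 0.26 and 0.31, with 28 of 38 and 21 of 27 above 0. Large minus small thus came to -0.01, -0.04 and -0.05. With the mean over members in place of the median, the sign of the 60 min difference turned, to 0.057. Among members with at least 2 probes the difference at 60 min was -0.20. The interquartile ranges at 0, 20 and 60 min were 0.24, 0.82 and 0.67 for the large subunit and 0.29, 0.54 and 0.54 for the small. On the positive side, 4 of 38 genes of the large subunit and 1 of 27 of the small reached 2-fold at 60 min, both a smaller share than the 16.2% of all genes.

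**Figure D2:**
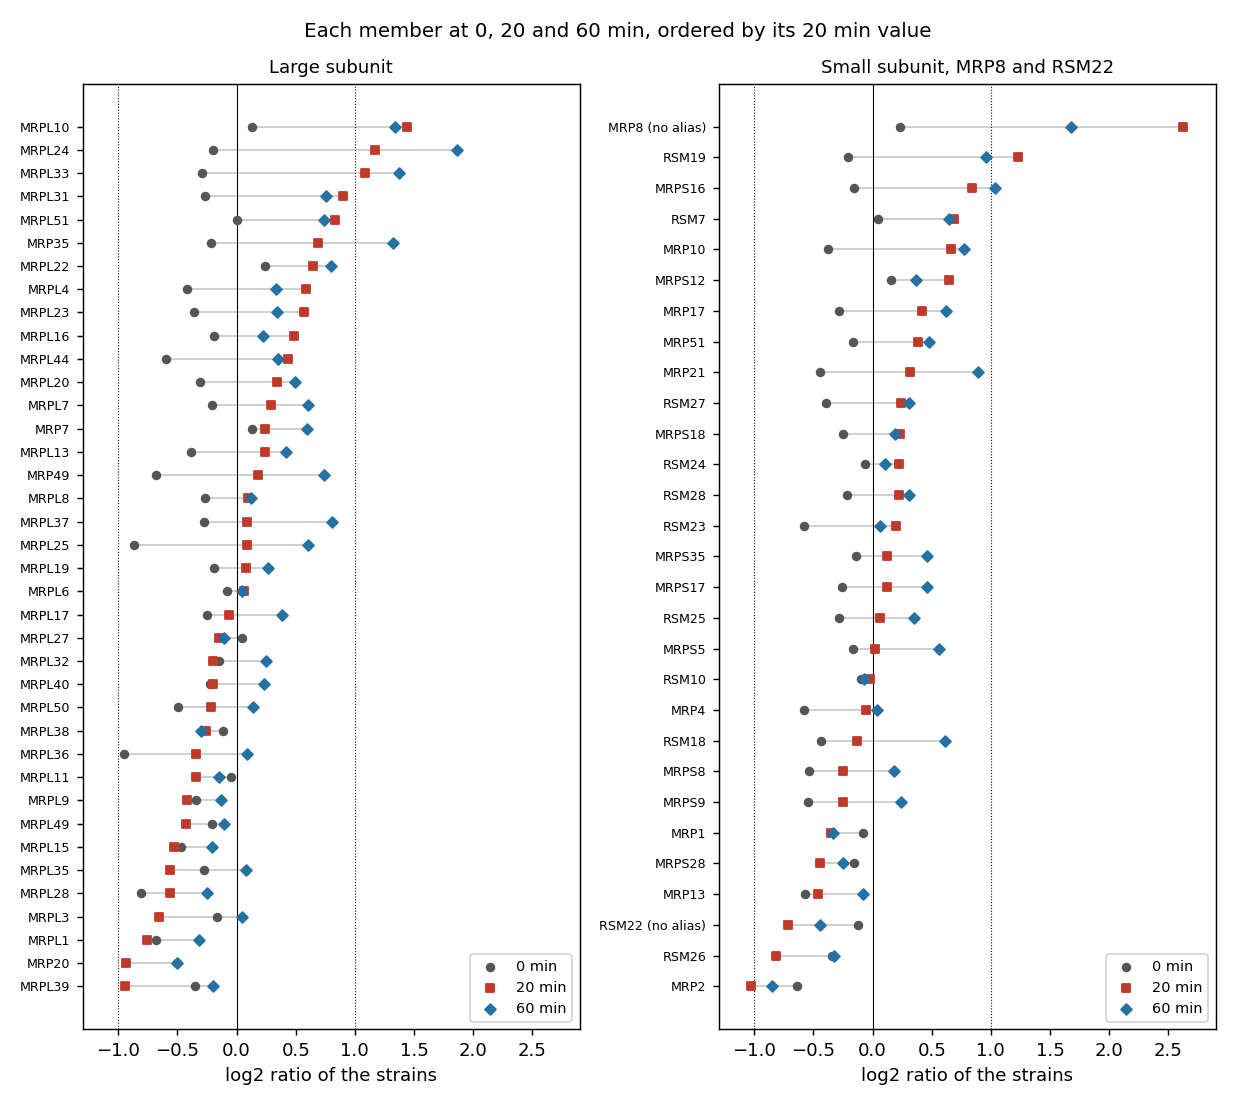
Log2 ratio of the strains (horizontal axis) for every member at 0 min (circles), 20 min (squares) and 60 min (diamonds), ordered by the 20 min value, with the large subunit on the left and the small subunit with MRP8 and RSM22 on the right; dotted lines mark 2-fold. Within each subunit the 20 min values run from about -1 to above 1.2, from -0.94 (MRPL39) to 1.44 (MRPL10) in the large and from -1.03 (MRP2) to 1.23 (RSM19) in the small subunit; the 0 and 60 min points of MRP20 coincide at -0.50.

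The highest member at 20 min was a gene with no ribosomal protein name in RefSeq. MRP8 (YKL142W), chosen through its symbol, had 0.24, 2.63 and 1.68 at 0, 20 and 60 min, a 6.19-fold difference at 20 min. It was read by a single probe, so no second probe checks the value. Without MRP8 and RSM22 the medians at the 3 times were -0.27, 0.09 and 0.31, and the positive side beyond 2-fold held 4 genes at 20 min and 5 at 60 min. RSM22 (YKL155C), a methyltransferase-like protein that acts in assembly of the small subunit, had -0.13, -0.71 and -0.44.

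Among genes with a subunit name, 3 of the large subunit reached 2-fold on the positive side at both times after glucose. MRPL24 (YMR193W), the counterpart of bacterial L28 and named bL28m, had -0.20, 1.17 and 1.86 at the 3 times, and at 60 min its probes gave 1.95 and 1.78. MRPL10 (YNL284C), or uL15m, had 0.13, 1.44 and 1.34. MRPL33 (YMR286W), or uL30m, had -0.30, 1.09 and 1.37. With MRP8, 4 of 67 members did so on both arrays, against 10.3% of all genes. All 3 lay within 0.30 of 0 before glucose, and for each of them the 2 probes differed by less than 0.05 at 20 min. With the arrays scaled to equal spread, MRPL10 kept its 2-fold value at 20 min and MRPL24 and MRPL33 did not, while at 60 min all 3 did.

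A further 3 genes crossed 2-fold on 1 of the arrays after glucose. MRP35 (YNL122C), or bL35m, had -0.22, 0.69 and 1.32. MRPS16 (YPL013C), or bS16m of the small subunit, had -0.16, 0.84 and 1.03. RSM19 (YNR037C), or uS19m, had -0.21, 1.23 and 0.96. MRP35 and MRPS16 were larger at 60 min and RSM19 at 20 min, and each pair of probes differed by 0.13 or less on both arrays. Centring took MRPS16 within 2-fold, and scaling to equal spread took MRPS16 and RSM19 within it.

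The single gene beyond 2-fold on the negative side was MRP2 (YPR166C), or uS14m. It had -0.64, -1.03 and -0.85, the lowest value of the small subunit on all 3 arrays. Its probes gave -0.95 and -1.10 at 20 min, so that only 1 of them passed 2-fold. Centring or scaling the arrays took the 20 min value of MRP2 within 2-fold. Scaling to equal spread took its 0 min value beyond 2-fold, to -1.71. In all, 16 of 67 members were below 0 on every array, against 19.6% of all genes, and 7 were above 0 on every array, against 26.5%. The most common pattern, below 0 before glucose and above 0 at both later times, was found in 32 of 67 members, 17 of the large and 15 of the small subunit, against 11.6% of all genes. These sides of 0 were not particular to the members. Of 37 nuclear genes of oxidative phosphorylation, 32 were below 0 at 0 min. All 37 were above 0 at 20 min and 23 at 60 min.

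In the large subunit, the genes for proteins around the exit of the tunnel through which the new peptide leaves were not all on the same side of 0. MRP20 (uL23m), which sits at the exit, was negative throughout at -0.50, -0.93 and -0.50. MRPL22 (uL22m), which lines the tunnel, was positive throughout at 0.24, 0.65 and 0.80, and was the highest member on pyruvate. MRPL4 (uL29m) had -0.42, 0.59 and 0.34. MRPL22 and MRPL4 were each read by 1 probe. At 20 min MRP20 and MRPL22, the lowest and highest of the 7 tunnel exit genes, lay 1.58 apart. The interquartile range of all genes was 1.34 at that time. MRPL3 (mL44) had -0.17, -0.66 and 0.05, MRPL13 (mL50) -0.39, 0.24 and 0.41, MRPL27 (mL41) 0.05, -0.15 and -0.10, and MRPL40 (uL24m) -0.22, -0.20 and 0.24. The 7 genes had medians of -0.22, -0.15 and 0.24 at the 3 times, with 0 beyond 2-fold.

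The stalks and the catalytic region were similarly divided. MRPL1 (uL1m), whose bacterial counterpart forms the stalk by which spent tRNA leaves, had -0.68, -0.76 and -0.32. MRPL11 (uL10m) and MRPL19 (uL11m), which in bacteria form the base of the stalk for translation factors, had -0.05, -0.34 and -0.15 for MRPL11 and -0.19, 0.08 and 0.27 for MRPL19. MRP7 (bL27m), which in bacteria reaches to the peptidyl transferase centre, had 0.13, 0.24 and 0.60. MRPL16 (uL16m) had -0.19, 0.49 and 0.22. Of these genes MRPL1 and MRPL11 were negative and MRP7 positive on all arrays. In size, MRPL11, read by 1 probe, stayed below the gap that held 95% of probe pairs at each time. MRP7 did so at 0 and 20 min and MRPL1 at 60 min. MRPL36 (bL31m), whose bacterial counterpart bridges the subunits, was the lowest member on pyruvate and had -0.95, -0.34 and 0.09, although both of its probes matched the pattern of low signal at 20 min. MRPL7 (uL5m) had -0.21, 0.29 and 0.60.

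The remaining large-subunit proteins with bacterial counterparts were mostly within 0.6 of 0. MRPL39 (bL33m) was the lowest of the large subunit at 20 min, with -0.35, -0.94 and -0.20, but its probes disagreed there, at -0.60 and -1.28. It also had the largest shift of the subunit from 20 to 60 min, 0.74. MRPL9 (uL3m) had -0.34, -0.42 and -0.13, and MRPL49 (bL21m) -0.21, -0.42 and -0.10. MRPL38 (uL14m) had -0.11, -0.26 and -0.30. These 3 were negative at each time by less than the gap that held 95% of probe pairs. MRPL50 (bL9m) had -0.50, -0.22 and 0.14, and MRPL32 (bL32m), whose maturation in mitochondria is controlled by a membrane-bound protease, had -0.15, -0.20 and 0.25. MRPL23 (uL13m) had -0.36, 0.57 and 0.34, with probes at 0.54 and 0.13 on the last array. MRPL6 (uL6m) and MRPL8 (bL17m) stayed between -0.27 and 0.13 at all times. Over the 24 large-subunit members with a bacterial counterpart, the medians were -0.21, 0.07 and 0.23.

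The 14 large-subunit members that occur only in mitochondria had medians of -0.29, 0.09 and 0.40, and 0 of them reached 2-fold on any array. MRPL31 (mL60) was highest at 20 min, with -0.26, 0.90 and 0.76, and MRPL51 (mL43) had 0.00, 0.83 and 0.74. MRPL25 (mL59), also known as AFO1 because its loss extends the replicative life span of yeast cells, had -0.87, 0.09 and 0.60. MRP49 (mL61) had -0.68, 0.18 and 0.74, with probes at 0.99 and 0.48 at 60 min. MRPL25 and MRP49 thus stood among the lowest on pyruvate and well above 0 at 60 min. MRPL44 (mL53) had -0.60, 0.43 and 0.35, and MRPL37 (mL54) had -0.28, 0.09 and 0.80. MRPL20 (mL58) had -0.31, 0.34 and 0.50, and MRPL17 (mL46) had -0.25, -0.07 and 0.38. On the negative side at 20 min, besides MRPL17 and the tunnel exit genes MRPL3 and MRPL27 given above, were MRPL28 (mL40) with -0.80, -0.57 and -0.25, MRPL35 (mL38) with -0.28, -0.56 and 0.08, and MRPL15 (mL57), a protein with a fold related to ribonuclease III, with -0.47, -0.53 and -0.21.

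In the small subunit the head, which turns during translocation, held both extremes at 20 min, MRP2 (uS14m) and RSM19 (uS19m). Only members with a bacterial counterpart were placed in a region, so proteins found only in mitochondria and genes outside the rule are left out. The regions were drawn up after the values were seen, so where the extremes fell is a description and no finding about the head. The others placed in the head were RSM7 (uS7m) with 0.05, 0.69 and 0.64, RSM10 (uS10m) with -0.10, -0.02 and -0.07, and MRPS9 (uS9m) with -0.54, -0.25 and 0.24. The 5 genes ranged over 2.26 at 20 min. MRPS9 has a single probe, which matched the pattern of low signal at 20 min.

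The 6 members placed in the body and neck of the small subunit had medians of -0.21, 0.07 and 0.41. NAM9 (uS4m), a body protein whose symbol falls outside the rule, had -0.16, -0.69 and -0.07 and is not counted in them. MRPS12 (uS12m), which in bacteria takes part in decoding, was highest of the subunit on pyruvate and had 0.15, 0.65 and 0.37. MRP4 (uS2m) had -0.58, -0.06 and 0.04, MRPS5 (uS5m) -0.16, 0.02 and 0.56, MRPS8 (uS8m) -0.54, -0.25 and 0.18, and MRPS17 (uS17m) -0.26, 0.12 and 0.46. On the platform, MRP17 (bS6m) and RSM18 (bS18m), whose bacterial counterparts bind each other, had -0.28, 0.42 and 0.62 for MRP17 and -0.44, -0.13 and 0.61 for RSM18. They lay 0.55 apart at 20 min and 0.004 apart at 60 min. MRPS18 (uS11m) had -0.25, 0.23 and 0.19, and MRPS28 (uS15m) was negative at -0.15, -0.44 and -0.25. Of the proteins placed in none of these regions, MRP21 (bS21m) had -0.44, 0.32 and 0.89, and MRP51 (bS1m), which acts genetically with the leaders of mitochondrial mRNAs, had -0.16, 0.38 and 0.48.

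The 10 small-subunit members found only in mitochondria had medians of -0.31, 0.16 and 0.21, and all 10 were below 0 on pyruvate. The 17 small-subunit members with a bacterial counterpart had medians of -0.25, 0.12 and 0.46. MRP10 (mS37) was highest at 20 and 60 min, with -0.37, 0.66 and 0.77, though its probes lay 0.45 apart at 0 min. MRP1 (mS43) and RSM26 (mS42), which are related in sequence to manganese superoxide dismutase, were both negative throughout, with -0.08, -0.35 and -0.33 for MRP1 and -0.34, -0.81 and -0.32 for RSM26. MRP13 (mS44) was negative throughout too, at -0.57, -0.46 and -0.08. RSM23 (mS29), the relative of the human GTP-binding protein DAP3, had -0.58, 0.20 and 0.06. RSM24, RSM25, RSM27, RSM28 and MRPS35 lay between 0.07 and 0.24 at 20 min and between 0.11 and 0.46 at 60 min.

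**Figure D3:**
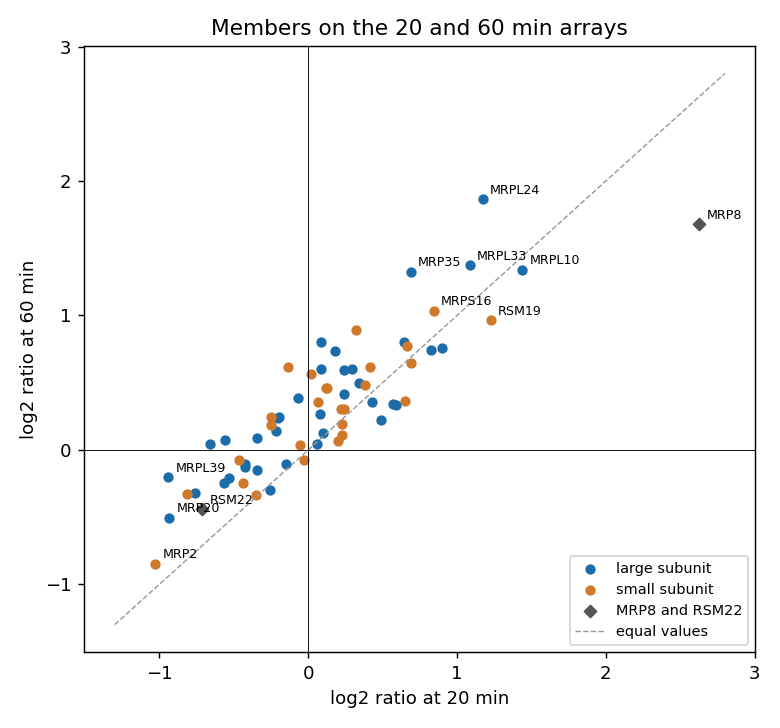
Log2 ratio of each member at 20 min (horizontal axis) against that at 60 min (vertical axis), coloured by subunit, with the dashed line marking equal values. Pearson's r is 0.871 over the 67 genes and most points lie above the line, with MRP8 farthest to the right at 2.63 on the 20 min axis and MRP2 lowest at -1.03 and -0.85.

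The order of the members, like that of all genes, was much alike on the 2 arrays after glucose and less so between pyruvate and glucose. Over the 67 genes Pearson's r between 20 and 60 min was 0.871 and Spearman's rho 0.860, against 0.739 and 0.729 over all genes. Between 0 and 20 min r was 0.438 and rho 0.319, and without MRP8 r was 0.370. Over all genes r was 0.304 and rho 0.251 between these times. These are correlations across genes, which are not independent replicates, and the points share the strains, the probes and the dye orientation.

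Genes of the mitochondrial ribosome whose symbols fall outside the rule were alike on pyruvate and, with both subunits pooled, had lower medians after glucose. All 13 were below 0 on pyruvate, with a median of -0.26. Their medians were -0.01 at 20 min and 0.13 at 60 min, against 0.09 and 0.31 for the members, with 0 beyond 2-fold. At 60 min the subunits differed in this. The 8 genes of the large subunit had a median of 0.13, below the 0.26 of the large-subunit members. The 5 of the small subunit had 0.37, above the 0.31 of the small-subunit members. Above 0 were 6 of the 13 at 20 min and 9 at 60 min, against 47.1% and 52.1% of all genes. The highest at 20 min was IMG2 (mL49) with -0.14, 0.64 and 0.78, and the lowest was NAM9 at -0.69. Of all these genes, 2 pairs were next to each other in the RefSeq gene order. MRPS12 and RSM19 were both positive after glucose, and MRX14 (bL34m), at -0.37, -0.57 and -0.33, was negative like its neighbour MRPL1.

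Genes for proteins that work with this ribosome are given by group. The 9 translation factors of mitochondria had medians of -0.21, 0.11 and 0.02. The elongation factor TUF1 had -0.23, 0.55 and 0.02, the release factor MRF1 -0.23, 0.32 and 0.96, and the recycling factor RRF1 -0.55, 0.53 and 0.94. MEF2, which in mammals acts in ribosome recycling, was the exception with 0.36, 1.44 and -1.35, the highest of these factors at 20 min and the lowest at 60 min, from a single probe. The 8 measured genes for ribosome assembly and rRNA modification had medians of -0.14, -0.49 and -0.03. Among these the rRNA methyltransferase MRM2 had -0.20, 1.06 and 1.59 and the helicase MRH4 -0.24, -1.04 and -0.15. Of 5 genes for mitochondrial transcription and membrane insertion, all were below 0 at 20 min, where 2960 of 5597 named genes were. The 5 ran from OXA1, the insertase, at -0.76 to MTF1, a transcription factor for mitochondrial DNA, at -0.12.

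**Figure D4:**
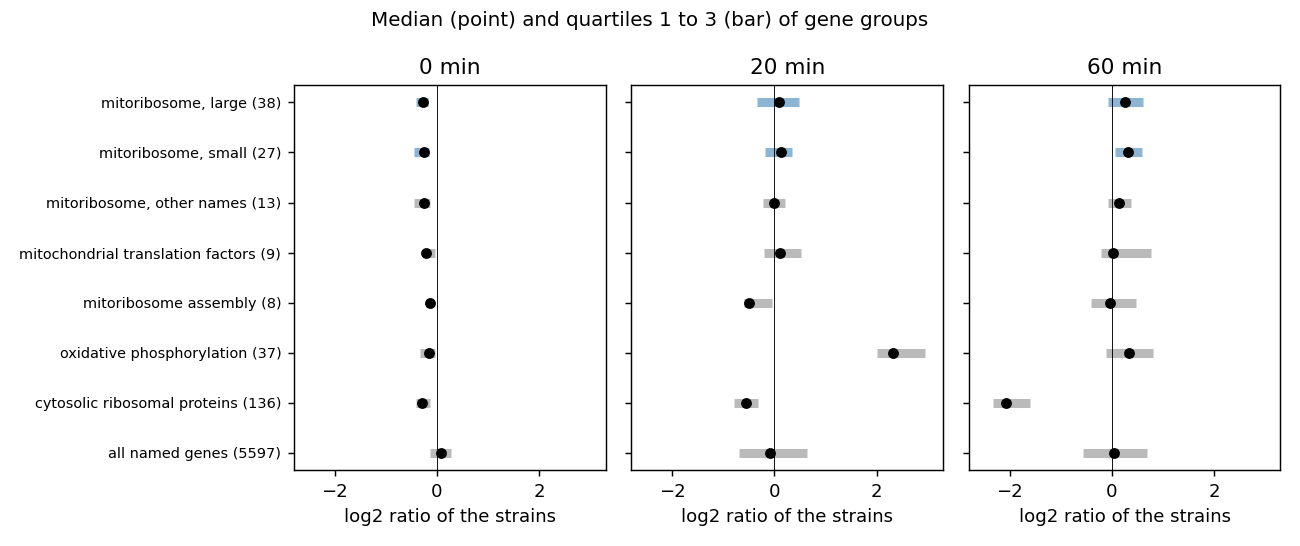
Median (point) and quartiles (bar) of the log2 ratio of the strains at 0, 20 and 60 min for both subunits of the mitochondrial ribosome, related gene groups and all named genes, with the number of genes in brackets. At 20 min the oxidative phosphorylation genes have a median of 2.33 while both subunits stay near 0.1, and at 60 min the cytosolic ribosomal proteins have a median of -2.07.

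Nuclear genes of oxidative phosphorylation had other values at 20 min. All 37 measured here reached 2-fold on the positive side then, from 1.11 for COX5B to 4.26 for QCR2, against 5 of 67 members and 17.1% of all genes. On pyruvate their median of -0.17 and at 60 min their median of 0.33 lay near those of the mitochondrial ribosome, -0.26 and 0.31. From 0 to 60 min their median shift was 0.47, with 31 of 37 upwards, against 0.62 and 59 of 67 for the members. The 136 cytosolic ribosomal protein genes were close to the mitochondrial ribosome on pyruvate, with a median of -0.29. They had -0.56 at 20 min and -2.07 at 60 min. At 60 min 127 of them, 0 of the mitochondrial set and 13.6% of all genes were beyond 2-fold on the negative side. With 1 array a time these contrasts between groups have no test.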

How the data were processed

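RNA of both strains was hybridised on 3 Agilent 2-channel arrays, after linear amplification per the labels. The deposited table holds a log2 ratio for each of 10807 probes; base 2 follows from the spacing of tied values. What the authors did before deposit (scanner, background correction, normalisation, filters) and the numerator are not stated in the labels. The median of all probes was 0.02, -0.15 and -0.08, so the columns were not centred on the median of all probes. The number of arrays limits the precision.

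The platform annotation gave 9202 probes 1 gene symbol, and probes of a gene were averaged (python 3.11.15, pandas 2.3.3, numpy 2.4.6). Subunit and bacterial or mitochondrial origin were read from the systematic names in RefSeq R64, which matched all 67 members. The probes' genome build is unstated, so coordinates were left out, and sequences were not used here, nor were promoter motifs counted. Of the members, 46 had 2 probes and 21 had 1.

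No filter on low values was applied. Called genes had a log2 ratio of at least 1.0 in size. A probe matched the pattern of low signal when its value lay within 0.001 of the array's most frequent value plus the log2 ratio of 2 whole numbers up to 8. A match can be a coincidence, since 9.28%, 10.9% and 8.57% of named probes matched. The arithmetic was tested on simulated data.

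Members and lists were chosen with earlier results of these data known, and the regions of the small subunit after their values were seen. Named were GCR1, members at the ends of each subunit, beyond 2-fold or with disagreeing probes, the tunnel exit, MRP8 and RSM22, and the ends of related lists. Every other member was named afterwards to complete the account. Alternatives were centring or scaling the arrays, other summaries over probes or members, other membership, a 1.5-fold threshold and leaving out low signal. A count of RSM22 with the small subunit was added after seeing the data.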

Additional observations from a re-analysis of the deposited data

Results flagged for a closer look

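The values below lay on opposite sides of 0 at 2 times. The difference was not tested, since each time has 1 array. The median of the 67 members was negative at 0 min and positive later, higher by 0.34 at 20 min and by 0.56 at 60 min. For the large subunit these differences of medians were 0.35 and 0.53, and for the small subunit 0.38 and 0.56.

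Single members are given where both values were larger than the gap below which 95% of probe pairs fell on that array. MRPL25 differed by 1.48 between 60 and 0 min (0.60 and -0.87), MRP49 by 1.41 (0.74 and -0.68), MRP21 by 1.33 (0.89 and -0.44) and RSM18 by 1.05 (0.61 and -0.44). MRPL4 differed by 1.01 between 20 and 0 min (0.59 and -0.42). In each of these 5 genes the 0 min value was the negative one, which follows from how they were chosen. A positive 0 min value could not qualify, since the highest, 0.24 for MRPL22, was below the 0 min gap of 0.41. MRPL4 was read by 1 probe.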

How the results depend on the processing

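Of 240 values recomputed for 24 results under 11 alternatives, 219 moved by less than 0.12 or, for counts, by at most 1.5 times. The 0.12 is the technical spread of a single probe, estimated from probe pairs, a loose limit for medians over many genes. Part of the 219 was fixed in advance. All 67 members had values on every array and none had more than 2 probes. Requiring all 3 arrays, or taking the median over probes, could therefore change nothing. Centring could not change large minus small, and leaving out MRP8 and RSM22 could not change a subunit result. The sign turned in 2 of the 240 values, both with the mean over members: large minus small at 60 min, 0.057 against -0.05 with the median, and large minus small of the shift from 0 to 60 min, 0.067 against -0.08. Scaling the arrays to equal spread moved most: the median at 0 min to -0.79, the shifts from 0 to 20 and from 0 to 60 min to 0.965 and 0.999, the count of members at least 2-fold negative to 24 at 0 min and 0 at 20 min, and the count at least 2-fold positive at 20 min to 2. Centring each array took the shift from 0 to 20 min to 0.52 and that from 20 to 60 min to 0.077, and the counts of 2-fold negative members to 1 at 0 min and 0 at 20 min. The direction of the medians at 0, 20 and 60 min was kept under both. At 1.5-fold the negative counts were 7, 7 and 1 at the 3 times, and the positive counts 14 at 20 min and 20 at 60 min. With 2 probes required, large minus small at 60 min was -0.20. The causes were not tested beyond what each alternative changes by construction. No paired analysis was possible because each time has 1 array. No replicate could be left out.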
